A study of Mus musculus with 18 samples.

Results

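The 8 genes described here, Trpm5, Dclk1, Pou2f3, Avil, Il25, Gnat3, Sh2d6 and Bmx, are markers of tuft cells and were followed in sorted lung epithelium of Wnt reporter mice. They were taken by name as a list of tuft cell genes, a list made with earlier results of these data known. Each of the 8 had exactly 1 probe set with a single gene symbol, among 30142 genes measured on 18 Affymetrix arrays.

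Tuft cells, also called brush or solitary chemosensory cells, are rare epithelial cells that sense small molecules through taste-type receptors. Receptor activation passes through a G protein and the release of calcium to the cation channel Trpm5, and the cells answer with acetylcholine, lipid mediators and the cytokine Il25, which acts on type 2 innate lymphoid cells. In the mouse airway they lie mainly in the trachea and large airways, and they depend on the POU domain factor Pou2f3.

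All mice carried the TCF/Lef:H2B/GFP transgene, in which TCF/Lef sites drive a histone-bound green fluorescent protein in cells with active Wnt/beta-catenin signalling, and were 8 to 12 weeks old. Trachea and bronchi were included with the lungs, although the tissue label names the distal lung. CD31 and CD45 positive cells were removed on beads, live EpCAM positive cells were sorted, and each array held RNA pooled from 3 to 4 animals. The Wnthigh, Wntlow and Wntnegative groups are the cells with high, low and no fluorescence, with 6 arrays each. The labels name no treatment, and all 3 groups carry the reporter. Some tuft cells carry CD45, the antigen used for depletion.

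The deposited values are log2 values, and the arrays fell into 2 runs that differ in overall level. Array medians lay between 4.62 and 4.77 in experiments 2 to 5 (9 arrays) and between 3.55 and 3.69 in experiments 7 to 9 (another 9). Every group had 3 arrays in each run, so groups were compared within runs. A gene was taken as above background on an array where its value exceeded the 95th percentile of the 23 antigenomic background probe sets, which match no mouse sequence. That percentile lay at 4.82 to 5.17 in experiments 2 to 5 and at 4.57 to 4.92 in experiments 7 to 9. The epithelial markers Epcam, Cdh1 and Krt8 were above it on all 18 arrays. Among the Wntlow arrays of experiments 3, 4 and 5, the axonemal gene Rsph1 of ciliated cells was at 15.23, 10.96 and 13.87. In experiments 7, 8 and 9 it was at 10.38, 12.09 and 10.66. Experiment 4 thus lay within the range of the other Wntlow arrays, and experiment 3, at 15.23, lay above all of them. The Wntlow arrays of experiments 3 and 4, the ends of the first run, were left out in an alternative chosen after seeing the data. The Wntlow results that passed for Dclk1, Bmx and Il25 are also given without these arrays. Trpm5, Pou2f3, Gnat3, Sh2d6 and Avil passed in no comparison with or without them.

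Tuft cell genes were mostly at background in all 3 groups. Trpm5, Pou2f3, Il25, Gnat3 and Sh2d6 were above background on 0 of 18 arrays, as were 13045 of all 30142 genes (43.3%), and none of the 8 was above it on all 18 arrays, as 32.4% of all genes were. Avil was above background on 9 arrays, all of 1 run. Dclk1 and Bmx alone among the 8 were above background on all 6 arrays of at least 1 group. In no group were more than 3 of the 8 genes above background on any array. In bulk RNA, fewer cells of a type and less RNA per cell cannot be told apart.

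The sensing genes come first. Trpm5 is the cation channel that opens on calcium release and depolarizes tuft and taste cells (chr7:143071529-143094642 in GRCm38.p6). In experiments 2 to 5 its values were 4.36, 4.34 and 4.27 in Wnthigh, between 4.36 and 4.53 in Wntlow, and 4.36 on all 3 Wntnegative arrays. In experiments 7 to 9 it lay between 3.36 and 3.39 on all 9 arrays. The groups overlapped in both runs. The log2 differences were −0.03 ± 0.03 (SE) for Wnthigh against Wntnegative, 0.02 ± 0.03 for Wntlow against Wntnegative and −0.05 ± 0.03 for Wnthigh against Wntlow, and none passed the threshold (adjusted p of 0.587, 0.675 and 0.358 by limma with Benjamini-Hochberg adjustment over all genes).

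Gnat3 encodes gustducin, the G protein alpha subunit of taste signalling (chr5:17962570-18019668). Its values ran from 3.81 to 3.92 over the 9 arrays of experiments 2 to 5 and from 3.21 to 3.35 over those of experiments 7 to 9. In the first run the Wntlow arrays, at 3.92 each, lay just above the Wnthigh and Wntnegative arrays, by 0.01 log2 units over Wntnegative, and in the second run all groups overlapped. No comparison of Gnat3 passed, with adjusted p between 0.866 and 0.966 by limma.

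Pou2f3, the factor that tuft cells need to form (chr9:43123927-43205755), had the same value, 4.04, on 8 of the 9 arrays of experiments 2 to 5, and 3.13 on 6 of the 9 arrays of experiments 7 to 9. The remaining array of the first run, a Wntnegative one, was at 4.12, and the second run spanned 3.04 to 3.15. Of all genes, 14.8% had an identical value on 5 or more of the 9 arrays of the first run, and 20.6% on those of the second. The 3 comparisons gave log2 differences from −0.04 to 0.02 with adjusted p from 0.32 to 0.659 by limma.

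Sh2d6, an adaptor protein with an SH2 domain that is found in tuft cells (chr6:72513641-72534206), lay between 4.05 and 4.26 in experiments 2 to 5 and between 3.07 and 3.11 in experiments 7 to 9. The Wnthigh median of the first run was 4.09, against 4.17 in Wntlow and 4.20 in Wntnegative, and the groups overlapped. Its log2 difference for Wnthigh against Wntnegative was −0.06 ± 0.03 (SE) and did not pass (adjusted p = 0.155, limma).

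Il25 is the cytokine by which tuft cells reach type 2 innate lymphoid cells (chr14:54932695-54935837). In experiments 2 to 5 it was at 4.60 on all 3 Wnthigh arrays, at 4.37, 4.47 and 4.54 in Wntlow, and at 4.69, 4.75 and 5.03 in Wntnegative. These groups did not overlap, and Wntlow was lowest. In experiments 7 to 9 the medians were 3.32 in all 3 groups and the groups overlapped. Wntlow against Wntnegative gave a log2 difference of −0.25 ± 0.08 (SE) and passed the threshold (adjusted p = 0.0361, limma), with both groups at background on every array, so no size is drawn from it. Among all genes never above background, 4.68% passed in this comparison. The Il25 call was lost without experiment 3 (adjusted p = 0.0974), 4 (0.168), 5 (0.0769) or 7 (0.0942), and without the Wntlow arrays of experiments 3 and 4 (0.186), over a range of 0.0179 to 1 for all alternatives. Wnthigh against Wntnegative gave −0.20 ± 0.08 and did not pass (adjusted p = 0.0687), though it did without experiment 9 (0.048).

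Avil encodes advillin, an actin-binding protein related to villin that marks the brush border of tuft cells (chr10:127000065-127020994). It was above background on all 9 arrays of experiments 2 to 5 and on 0 of the 9 of experiments 7 to 9. In the first run its values were 6.27, 6.27 and 6.73 in Wnthigh, 5.86, 6.04 and 6.27 in Wntlow, and 6.27, 6.27 and 6.32 in Wntnegative. In the second run all values lay between 4.40 and 4.56. The groups overlapped in both runs and no comparison passed, with adjusted p of 0.639, 0.493 and 0.252 by limma. The Wnthigh against Wntlow difference was 0.37 in the first run and −0.05 in the second, and the interaction of group and run for it did not pass (adjusted p = 0.619, limma).

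The Avil promoter is shown because it was the only one of 7 matched promoters of 6 of the genes that held the first 7 letters of the octamer bound by POU factors such as Pou2f3 (ATGCAAA, searched on both strands and read as TTTGCAT on the opposite one; no match of it overlapped the TCF/Lef letters described for Dclk1). It held them 2 times, at −115 and −15 from the start, in capitals below. Of 32851 RefSeq promoters of the same length, 4.63% held them. The sequence is from RefSeq, GRCm38.p6, chr10:127000459-127000758, plus strand.
Avil: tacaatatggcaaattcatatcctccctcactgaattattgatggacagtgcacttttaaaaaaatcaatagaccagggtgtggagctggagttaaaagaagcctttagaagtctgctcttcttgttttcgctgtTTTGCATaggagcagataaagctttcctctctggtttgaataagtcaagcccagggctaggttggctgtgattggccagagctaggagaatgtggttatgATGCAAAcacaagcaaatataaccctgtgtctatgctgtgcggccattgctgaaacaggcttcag

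Dclk1 was lowest in the cells with the highest reporter activity. Dclk1 is a microtubule-associated kinase, used as a tuft cell marker in the intestine and airway (chr3:55242303-55539068). In experiments 2, 4 and 5 the Wnthigh arrays were at 5.11, 6.58 and 5.50, and in experiments 7, 8 and 9 at 4.19, 4.17 and 4.25. The Wntlow arrays of experiments 3, 4 and 5 were at 6.93, 8.38 and 7.46, and those of experiments 7, 8 and 9 at 5.74, 5.74 and 5.92. The Wntnegative arrays of the same experiments were at 8.39, 8.22 and 8.16, then at 6.84, 6.77 and 6.27. Wnthigh was lowest in both runs, apart from both other groups, and Wntlow overlapped Wntnegative in the first run only.

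Wnthigh against Wntnegative gave a log2 difference of −2.48 ± 0.23 (SE, 6 arrays a group, adjusted p = 2.8e-07, limma), with −2.53 in the first run and −2.43 in the second. Dclk1 was above background on only 2 of 6 Wnthigh arrays, and with the dim values raised to background the difference was −2.11, which is a limit on its size. Of the 8 genes 1 passed in this comparison, Dclk1, with 0 higher and 1 lower, against 40.3% of all genes, 15.7% higher and 24.6% lower. Wnthigh against Wntlow gave −1.73 ± 0.23 (adjusted p = 3.07e-05, limma; −1.36 with dim values raised), and −1.65 (adjusted p = 3.95e-05) without the Wntlow arrays of experiments 3 and 4. The call was lost with no run term in the fit (0.0839).

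Wntlow lay below Wntnegative by less. The log2 difference of −0.75 ± 0.23 passed (adjusted p = 0.0268, limma), with −0.67 in the first run and −0.83 in the second. It was lost without experiment 3 (adjusted p = 0.11), 5 (0.0763), 7 (0.108) or 8 (0.111), and in experiments 2 to 5 alone (0.422). Without the Wntlow arrays of experiments 3 and 4 it was −0.83 (adjusted p = 0.0108), and adjusted p over all alternatives ran from 0.000336 to 1. The order of the levels was thus Wntnegative, Wntlow, Wnthigh, and the call between the first 2 groups rested on which experiments were included.

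The 2 matched promoters of Dclk1 are shown because the reporter responds to TCF/Lef factors and Dclk1 fell where the reporter was high. The TCF/Lef core, searched on both strands as CTTTGAT, was in promoter 1 at −153, in capitals, and these letters were not in promoter 2. Of 32851 RefSeq promoters, 3.73% held it. Both are from RefSeq, GRCm38.p6, plus strand, at chr3:55242114-55242413 and chr3:55461478-55461777. A match is a description of letters and not a binding site.
Dclk1 promoter 1: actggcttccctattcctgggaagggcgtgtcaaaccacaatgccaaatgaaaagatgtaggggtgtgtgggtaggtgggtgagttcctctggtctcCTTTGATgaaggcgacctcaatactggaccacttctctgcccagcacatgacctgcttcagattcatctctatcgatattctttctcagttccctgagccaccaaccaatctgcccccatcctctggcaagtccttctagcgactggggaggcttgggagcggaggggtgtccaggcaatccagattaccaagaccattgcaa
Dclk1 promoter 2: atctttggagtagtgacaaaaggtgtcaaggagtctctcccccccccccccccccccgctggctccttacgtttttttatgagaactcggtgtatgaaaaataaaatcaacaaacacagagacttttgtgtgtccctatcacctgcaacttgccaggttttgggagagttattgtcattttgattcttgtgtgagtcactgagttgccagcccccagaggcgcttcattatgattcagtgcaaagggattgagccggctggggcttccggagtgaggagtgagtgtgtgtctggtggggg

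Most but not all markers of alveolar cells moved with Dclk1. Lamp3, a lysosomal membrane protein of alveolar type II cells, ran at 9.75 to 15.10 in Wnthigh, 14.08 to 17.01 in Wntlow and 17.24 to 17.37 in Wntnegative over experiments 2 to 5. All 4 alveolar type II markers were above background on all 18 arrays, and their summed log2 levels in that run were 52.0 to 67.5, 65.1 to 71.6 and 72.0 to 72.3 in the same order. In experiments 7 to 9 the sums were 47.7 to 62.4, 55.9 to 70.0 and 74.8 to 75.7. The Wnthigh array with the highest Dclk1 (6.58, experiment 4) was also the one with the highest Lamp3. Sftpc, the surfactant protein gene of type II cells, was level across the groups, at means of 18.76 in Wnthigh, 18.87 in Wntlow and 18.78 in Wntnegative in experiments 2 to 5. In experiments 7 to 9 it ran from 19.68 to 19.93, with array maxima from 19.69 to 19.93. Near the top of the scale a difference may not show. Hopx of the type I list ran the other way, at 6.08, 5.67 and 5.40 in experiments 2 to 5. In experiments 7 to 9 Hopx was above background on only 1 array, a Wnthigh one. Over 18 arrays centred on their run, Pearson's r with Dclk1 was 0.857 for Lamp3, 0.920 for Ager of alveolar type I cells and 0.958 for Cftr, a chloride channel, and −0.884 for the ciliated gene Rsph1. It was 0.836 for Napsa, 0.792 for Slc34a2 and 0.135 for Sftpc of the type II list, and 0.934 for Aqp5, 0.744 for Pdpn and −0.923 for Hopx of the type I list. Cftr stands in the ionocyte list, whose Ascl3 gave −0.863, and the myeloid markers Cd68 and Csf1r gave 0.792 and −0.703. Ascl3 was above background on 3 Wnthigh, 1 Wntlow and 0 Wntnegative arrays, and Csf1r on 3 arrays of each group. The values of these 2 genes thus rest largely on arrays at background. Centred on group as well, r was 0.617 for Lamp3, 0.706 for Ager, 0.897 for Cftr and −0.619 for Rsph1. Arrays share experiment and run, so these values are descriptions. Their part in the Dclk1 differences was not tested.

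Bmx was highest in Wntlow. Bmx is a tyrosine kinase of the Tec family, found in tuft cells and known also from arterial endothelium and myeloid cells (chrX:164192842-164258193). In experiments 2 to 5 the Wnthigh arrays were at 5.43, 5.67 and 5.54, and in experiments 7 to 9 at 4.05, 4.31 and 4.21. The Wntlow arrays were at 6.68, 6.04 and 7.44, then 6.89, 5.90 and 5.75. The Wntnegative arrays were at 4.72, 4.86 and 4.95, then 3.89, 3.31 and 3.92. In each run every Wntlow array was above every other, and no Wntnegative array was above background.

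Wntlow against Wntnegative gave a log2 difference of 2.17 ± 0.24 (SE, 6 arrays a group, adjusted p = 9.77e-06, limma), with 1.88 in the first run and 2.47 in the second. With the Wntnegative values raised to background it was at least 1.46. Without the Wntlow arrays of experiments 3 and 4 it was 2.53 (adjusted p = 4.42e-07). In this comparison 3 of the 8 genes passed, 1 higher (Bmx) and 2 lower (Dclk1 and Il25), against 25.5% of all genes, 12.3% higher and 13.2% lower. Of these 3, Bmx alone had the groups apart in the same direction in both runs, as 15.6% of all genes had.

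Wnthigh against Wntlow gave −1.58 ± 0.24 (adjusted p = 7.64e-05, limma), or −1.22 with dim values raised, and −1.93 (adjusted p = 3.68e-06) without the Wntlow arrays of experiments 3 and 4. It did not pass in experiments 2 to 5 alone (adjusted p = 0.0544). Dclk1 and Bmx were the 2 of the 8 genes that passed in this comparison, 0 higher and 2 lower in Wnthigh, against 27.9% of all genes, 11.4% higher and 16.4% lower. Both had groups apart in the same direction in both runs, as 18.4% of all genes had.

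Bmx was higher on every Wnthigh array than on every Wntnegative array of its run, in both runs. Dclk1 and Bmx were the 2 of the 8 genes with these groups apart in the same direction in both runs, against 30.7% of all genes. The log2 difference of 0.59 ± 0.24 (95% interval 0.09 to 1.10) did not pass (adjusted p = 0.0579, limma), and over the alternatives adjusted p ran from 0.0102 to 0.694. It passed without experiment 7 (0.0199), without the Wntlow arrays of experiments 3 and 4 (0.0102), with quantile normalization (0.0241), with median centring (0.0346) and with dim genes filtered out (0.0344). The order of Bmx means was thus Wntlow, Wnthigh, Wntnegative, and the last 2 groups were not separated by the test. With the Wntnegative values raised to background no rise in Wnthigh was left, so no size is drawn from this comparison.

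Genes of other cell types moved with Bmx. Kdr, a receptor for vascular endothelial growth factor, was at 9.56 to 11.99 in Wntlow over the 6 arrays, 5.29 to 8.78 in Wnthigh and 3.78 to 5.16 in Wntnegative. Of the 6 endothelial markers Kdr alone was above background on all 6 arrays of a group, and Pecam1, Cdh5, Cldn5 and Tie1 were above it on 0 arrays. The sum of the 6, with Kdr among them, was 30.7 to 33.0 in Wntlow, 26.4 to 29.5 in Wnthigh and 26.3 to 26.6 in Wntnegative in experiments 2 to 5. In experiments 7 to 9 it was 25.4 to 26.5, 21.0 to 21.7 and 19.4 to 20.3. The sum moved through Kdr. Wntlow against Wntnegative gave 6.01 for Kdr, and from −0.09 to −0.01 for Pecam1, Cdh5, Tek, Cldn5 and Tie1. The 4 goblet markers summed to 50.7 to 54.0 in Wntlow, 27.8 to 46.7 in Wnthigh and 19.3 to 21.4 in Wntnegative in the first run, and to 55.1 to 60.7, 31.8 to 33.1 and 16.7 to 18.5 in the second. Pearson's r with Bmx over 18 arrays centred on run was 0.955 for Kdr and 0.933 for the mucin Muc5b, and 0.601 and 0.318 when centred on group as well. Bmx was above background on only 9 of the 18 arrays, so all r with Bmx rest partly on values at background. The club cell markers Scgb1a1, Scgb3a2 and Cyp2f2 gave r with Bmx of 0.788, 0.798 and 0.688 centred on run. Centred on group as well, these were 0.332, 0.369 and 0.328. The part of goblet or club cell content in the Bmx result was not tested. All 5 mast cell and basophil markers and the leukocyte markers Ptprc, Cd3e, Tyrobp, Laptm5 and Fcer1g were above background on 0 of 18 arrays. Of the other measured leukocyte markers, Cd68 was above it on all 18 arrays, at means of 7.49 in Wnthigh, 8.02 in Wntlow and 8.88 in Wntnegative in experiments 2 to 5, and Csf1r on 9 of 18. Their r with Bmx was −0.176 and −0.153.

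**Figure D1:**
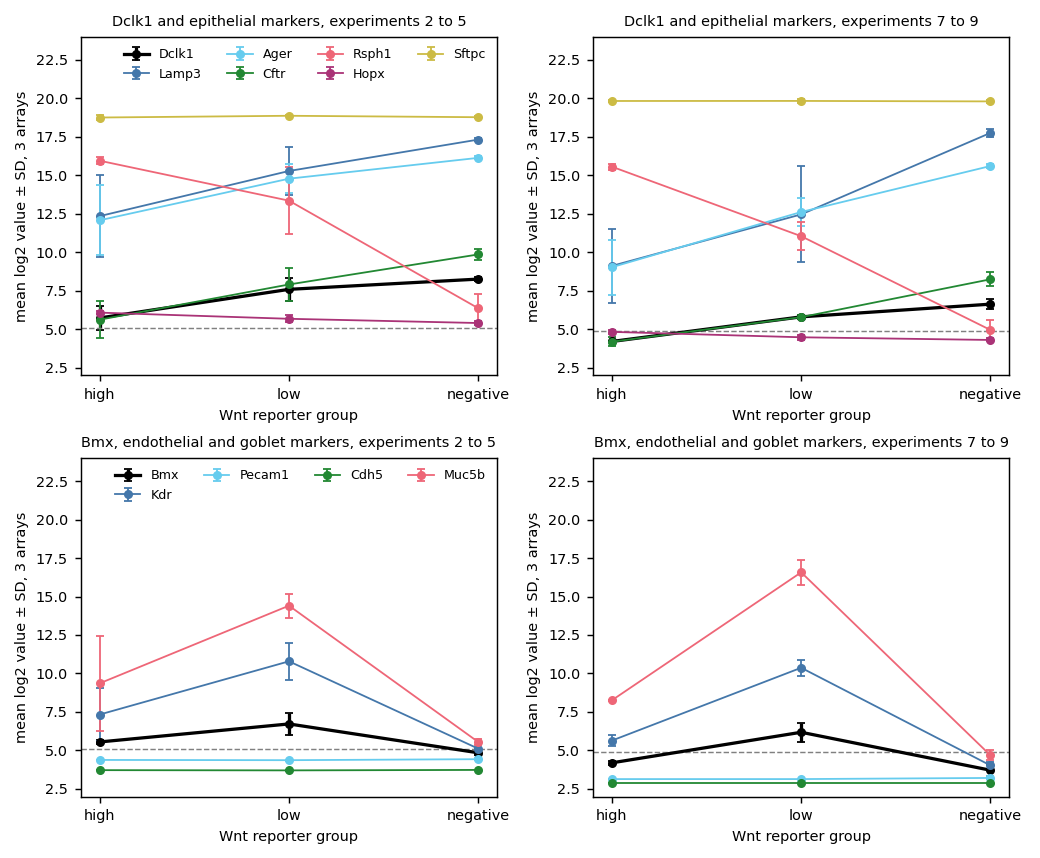
Mean log2 values (± SD, 3 arrays) by Wnt reporter group for Dclk1 with Lamp3, Ager, Cftr, Rsph1, Hopx and Sftpc (top) and for Bmx with Kdr, Pecam1, Cdh5 and Muc5b (bottom), in experiments 2 to 5 (left) and 7 to 9 (right), with a dashed line near the background of the run. Lamp3, Ager and Cftr run the same way as Dclk1, and Rsph1 and Hopx the opposite way. Sftpc is level near the top of the scale, and Hopx is near background in experiments 7 to 9. Kdr and Muc5b peak in Wntlow with Bmx, and Pecam1 and Cdh5 stay below background.

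The Bmx promoter is shown for comparison with that of Dclk1, since both genes passed in 2 or more comparisons. It held neither the POU nor the TCF/Lef letters. It is from RefSeq, GRCm38.p6, chrX:164258144-164258443, minus strand.
Bmx: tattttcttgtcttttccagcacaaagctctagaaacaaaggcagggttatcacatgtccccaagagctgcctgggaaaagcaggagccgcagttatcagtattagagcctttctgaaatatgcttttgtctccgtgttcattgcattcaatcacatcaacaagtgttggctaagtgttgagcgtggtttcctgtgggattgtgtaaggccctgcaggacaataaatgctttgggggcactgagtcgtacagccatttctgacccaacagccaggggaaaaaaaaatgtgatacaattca

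Dclk1 and Bmx, the 2 genes above background in whole groups, had a Pearson's r of −0.08 over 18 arrays centred on run. Correlations with the other genes, which were at background on 9 or more arrays, are not read. The median log2 difference of the 8 was −0.02 in each of the 3 comparisons, against medians of −0.05, −0.03 and −0.01 over all genes. The interaction of group and run was not past the threshold for any of the 8 genes, nor for any other gene (0 of all genes, limma with Benjamini-Hochberg adjustment). With no adjustment the limma interaction for Avil in Wnthigh against Wntlow, fitted across all genes, was the smallest of the 8 (0.0238).

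**Figure D2:**
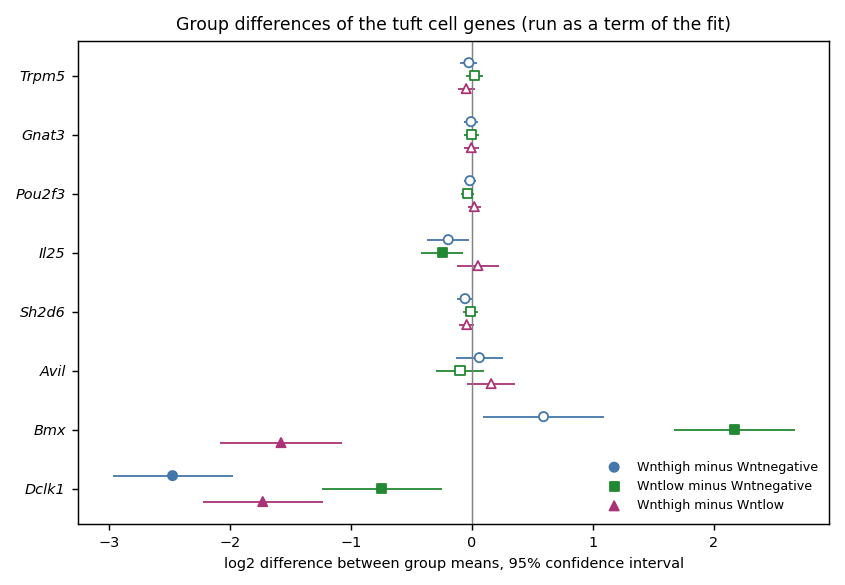
Log2 differences between group means for the 8 tuft cell genes in the 3 comparisons, with bars for 95% confidence intervals from the limma fit and filled symbols for those past the threshold of 0.05. The differences of Dclk1 run from −2.48 to −0.75 and those of Bmx from −1.58 to 2.17, while the other 6 genes lie between −0.25 and 0.16.

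The 3 genes most like Dclk1 and the 3 most like Bmx were named by correlation over the 18 run-centred arrays, among 9407 other genes above background on all 6 arrays of at least 1 group, with predicted genes, unnamed loci and microRNA genes left out. For Dclk1 they were Grn, the precursor of the granulins (r = 0.992), Pgm1, a sugar phosphate mutase (0.990), and Niban1 (0.986). Grn averaged 7.79 in Wnthigh, 9.71 in Wntlow and 10.49 in Wntnegative in experiments 2 to 5. For Bmx they were Sidt1, a transmembrane protein of the SID1 family (0.987), Vill, a villin-like actin-binding protein (0.987), and Itih5, a protein of the extracellular matrix (0.982). Sidt1 averaged 5.59, 7.26 and 4.92 in the same order, a pattern that its choice by correlation fixes. Like Bmx, Sidt1 and Itih5 were above background on 0 Wntnegative arrays, so their r values rest partly on values at background.

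Wider lists of tuft cell genes were also mostly at background. Of 56 genes in 5 lists, 50 had a probe set of their own. Of these, 28 were never above background, 14 were on some arrays and 8 were on all 18, against 43.3% of all genes never above it. The 9 genes above background on all 6 arrays of a group were Atp2a3, Cd24a, Krt18, Krt23, Mgst3, Pla2g4a, Ptpn18, Ptpn6 and Runx1, of which Krt18 and Cd24a are made by many kinds of epithelial cell. They are 18.0% of the 50, against 39.8% of all genes.

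Among the taste receptors and their signalling partners, 0 of 13 genes was above background on all 6 arrays of any group. In Wnthigh against Wntnegative 2 of 13 passed, against 40.3% of all genes, with Pde2a, a phosphodiesterase, higher (0.41 ± 0.10 SE, adjusted p = 0.00333, limma) and Tas1r3, a sweet and umami receptor subunit, lower (−0.46 ± 0.13, adjusted p = 0.00972, lost without experiment 7 at 0.0536). Both were dim: Pde2a was above background on 3 of 6 arrays of each group, and Tas1r3 on 3 Wnthigh and 4 Wntnegative arrays. With only the dim values of the lower group raised to background the differences were 0.07 and −0.16. The higher group was itself below background on some arrays, so these values are not limits on the size. Pde2a and Tas1r3 were named after their values were seen. In Wntlow against Wntnegative 0 of 13 passed by limma (25.5% of all genes), with 1 at an unadjusted p under 0.05. In Wnthigh against Wntlow 1 of 13 passed (27.9% of all genes), and without the Wntlow arrays of experiments 3 and 4 Tas1r3 (adjusted p = 0.00349) and Gng13 (0.0493) passed as well, by limma.

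Among the transcription factors, 6 of 8 passed in Wnthigh against Wntnegative, 2 higher and 4 lower, against 40.3% of all genes, 15.7% higher and 24.6% lower. Of the 4 lower, Gfi1b and Spib were above background on 0 of 18 arrays, and the Gfi1b call was lost without the Wntlow arrays of experiments 3 and 4 (adjusted p = 0.0564, limma). These calls were also lost without experiment 4 or 5, and that of Gfi1b without 3, 7 or 8 (up to 0.0787 for Spib and 0.183 for Gfi1b). Hmx2, also lower (−0.29, adjusted p = 0.0139, limma), likewise lost its call without experiment 4 or 5 (up to 0.0613). Ascl2, the last of the 4, kept its call without each experiment in turn (up to 0.0236). Hmx2 and Ascl2 were named after their values were seen. Runx1, a runt domain factor, was the only one above background on all 6 arrays of a group, and it rose by 1.11 ± 0.21 (adjusted p = 0.00046, limma) in Wnthigh and by 1.19 (adjusted p = 0.000602) in Wntlow against Wntnegative. In Wntlow against Wntnegative 2 of 8 passed (25.5% of all genes), both higher, and in Wnthigh against Wntlow 0 passed by limma (27.9% of all genes), with 0 at an unadjusted p under 0.05. The list's median difference was −0.08, −0.03 and −0.08 in the 3 comparisons.

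Among the eicosanoid, cytokine and acetylcholine genes, 4 of 10 passed in Wnthigh against Wntnegative, 3 higher and 1 lower, near the 40.3% of all genes. The 1 lower, Il17rb, was above background on 0 of 18 arrays, and its call was lost without experiment 5 (adjusted p = 0.0605, limma). Pla2g4a, the cytosolic phospholipase that frees arachidonic acid, rose by 4.53 ± 0.27 (adjusted p = 5.7e-09, limma) in Wnthigh and by 3.11 in Wntlow (adjusted p = 1.24e-06), both against Wntnegative. Mgst3, a glutathione transferase, rose by 3.12 and 1.62 (adjusted p of 7.09e-09 and 2.79e-05). Both were also higher in Wnthigh than in Wntlow, by 1.42 and 1.50. Alox5ap, named after its values were seen, was above background on all 6 arrays of no group. It rose by 0.46 in Wnthigh (adjusted p = 0.0194, limma, lost without experiment 8 at 0.0807) and by 1.10 in Wntlow (5.82e-05) against Wntnegative. Its Wnthigh difference from Wntlow was −0.64 (0.00316). In Wntlow against Wntnegative 4 of 10 passed (25.5% of all genes), and in Wnthigh against Wntlow 3 (27.9%). Alox5, Ltc4s, Hpgds, Chat, Slc18a3 and Tslp, the members without a call, named after their values were seen, were at background on every array of every group and did not pass in any comparison.

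Among the signalling proteins of the blood type, 4 of 10 passed in Wnthigh against Wntnegative, 2 higher and 2 lower, near the 40.3% of all genes. Of the 2 lower, Siglecf was above background on 0 of 18 arrays, and its call was lost without experiment 4 or 9 (adjusted p up to 0.0687, limma). Ptpn18, a tyrosine phosphatase, fell by 1.75 (adjusted p = 1.43e-05, limma) and Ptpn6, the phosphatase SHP-1, rose by 0.36 (adjusted p = 0.000406). Against Wntlow the Wnthigh differences were −1.86 for Ptpn18 and 0.40 for Ptpn6, and in Wntlow against Wntnegative 0 of 10 passed by limma (25.5% of all genes), with 1 at an unadjusted p under 0.05.

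Among the brush border and structural genes, 6 of 9 passed in Wnthigh against Wntnegative, 4 higher and 2 lower, against 40.3% of all genes, 15.7% higher and 24.6% lower. Cd24a, a surface glycoprotein, rose by 3.66 (adjusted p = 6.41e-09, limma) and Krt18, a simple epithelial keratin, by 0.63 (0.00361). Krt23, another keratin, fell by 6.04 (4.92e-07), and Atp2a3, a calcium pump, by 0.72 (0.00381). In Wntlow against Wntnegative 2 of 9 passed (25.5% of all genes), with Cd24a rising by 2.86 and Krt18 by 1.11. In Wnthigh against Wntlow 6 of 9 passed, 3 higher and 3 lower, against 27.9% of all genes, 11.4% higher and 16.4% lower. Cd24a was higher by 0.80 (adjusted p = 0.0133, limma). Atp2a3 gave −0.64 (0.0129), a call lost without experiment 8 (0.0769) and without the Wntlow arrays of experiments 3 and 4 (0.0505). The Krt18 difference of Wnthigh from Wntlow was −0.48 (adjusted p = 0.029), a call lost without experiment 2, 5, 7, 8 or 9 (up to 0.137). Krt23 was lower in Wnthigh than in Wntlow with a log2 difference of −4.54 (2.59e-05), and its Wntlow against Wntnegative difference of −1.50 did not pass (0.0818). Unlike Cd24a, Krt18 and Atp2a3, Krt23 was not above background on all 18 arrays. Its Wnthigh mean was 6.65, so the sizes of its Wnthigh differences rest partly on background values.

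Without the Wntlow arrays of experiments 3 and 4, the calls named above for Runx1, Pla2g4a, Mgst3, Cd24a, Krt18, Ptpn18, Ptpn6 and Krt23 held. In Wntlow against Wntnegative the differences were then 1.50 for Runx1, 3.16 for Pla2g4a, 1.71 for Mgst3, 2.96 for Cd24a and 1.34 for Krt18.

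**Figure D3:**
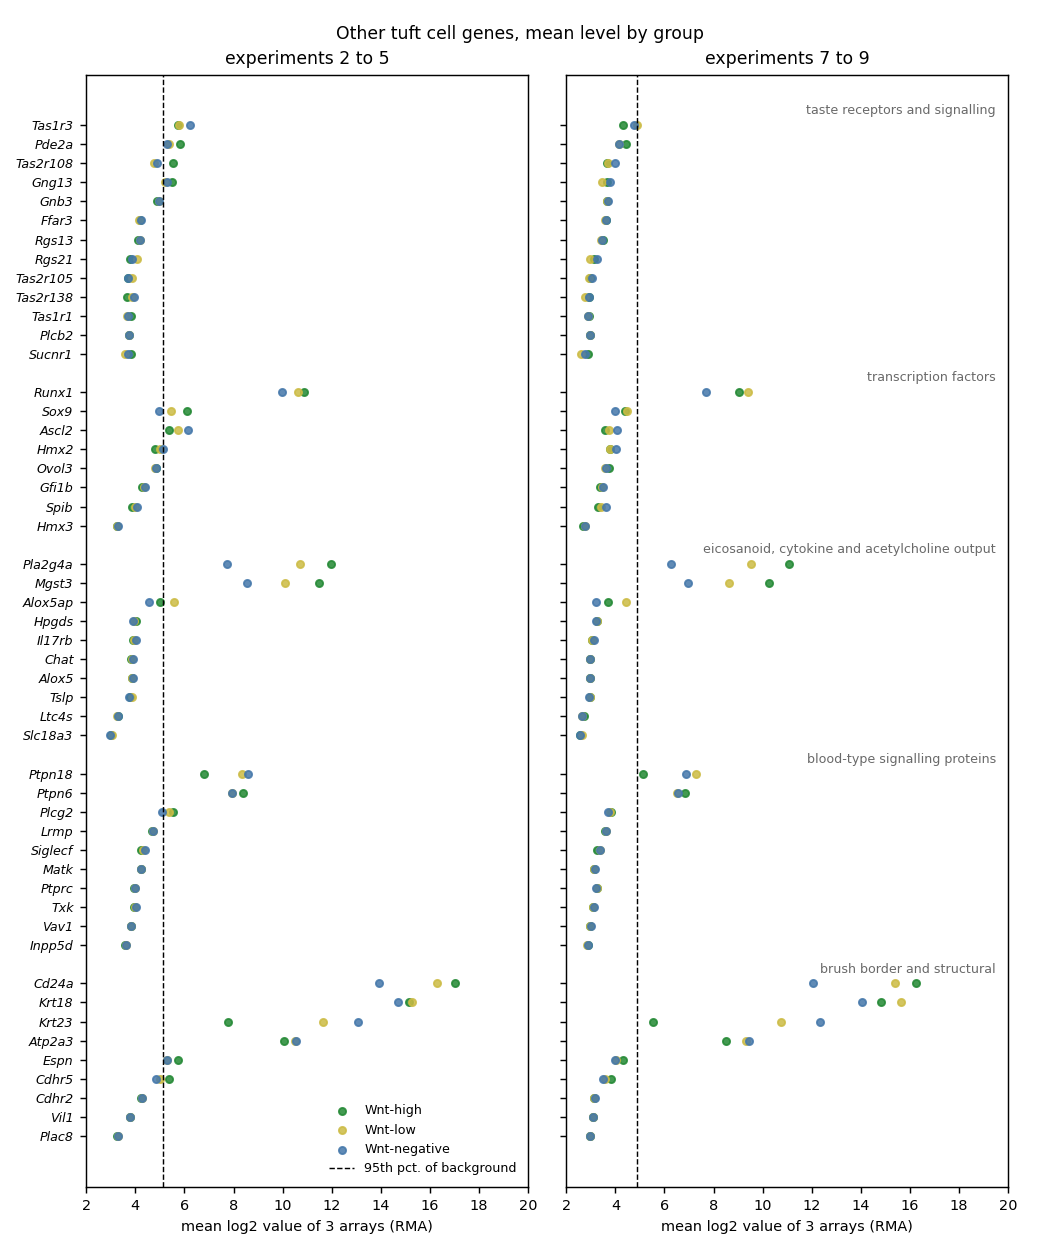
Mean log2 values of 3 arrays for each measured gene of the 5 wider tuft cell lists, by Wnt reporter group, in experiments 2 to 5 (left) and 7 to 9 (right), with a dashed line near the background of the run. Most genes lie left of the line, and Pla2g4a, Mgst3, Cd24a, Krt18, Krt23, Atp2a3, Runx1, Ptpn18 and Ptpn6 lie right of it in all 3 groups.

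Relatives of the 8 genes by sequence or domain were set beside them. Of 21 relatives 18 were measured and 6 were above background on all 6 arrays of a group. In Wnthigh against Wntnegative 7 of 18 passed, 4 higher and 3 lower, against 40.3% of all genes, in Wntlow against Wntnegative 6 (25.5% of all genes) and in Wnthigh against Wntlow 2 (27.9%). Trpm4, the other calcium-activated channel of its kind, rose by 0.99 in Wnthigh (adjusted p = 7.51e-05, limma) and by 0.79 in Wntlow (0.00134) against Wntnegative, where Trpm5 was at background. Gnai1, a G protein alpha subunit akin to Gnat3, fell by 1.57 (7.68e-08) in Wnthigh and by 0.42 (0.0262) in Wntlow against Wntnegative, the latter lost without experiment 3, 5, 7 or 8 (up to 0.105). Gnai2 rose by 0.33 (0.0136) and Gnai3 fell by 0.31 (0.0256) in Wnthigh against Wntnegative. Both of these calls were lost without experiment 8, and that of Gnai3 also without 7 or 9 (up to 0.0838). Gnai3 also fell by 0.44 (0.00526) in Wntlow against Wntnegative. In Wnthigh against Wntlow, Gnai1 was lower by 1.15 (8.85e-06) and Gnai2 higher by 0.40 (0.00525). The Gnai3 call in Wntlow and these calls of Gnai1 and Gnai2 held without each experiment in turn. Tec, a kinase of the Bmx family, fell by 0.27 (0.0168) in Wnthigh against Wntnegative, lost without experiment 9 (0.051). Blnk, an adaptor with an SH2 domain, rose by 1.94 (7.77e-06) in Wnthigh and by 2.13 (1.76e-05) in Wntlow against Wntnegative, where it was above background on only 2 of 6 arrays, so these sizes rest partly on background values. Without the Wntlow arrays of experiments 3 and 4 the calls of Trpm4 (0.000225), Gnai1 (0.0291), Gnai3 (7.35e-05) and Blnk (5.39e-06) in Wntlow against Wntnegative held. In Wnthigh against Wntlow those of Gnai1 (6.5e-05) and Gnai2 (0.00156) held, and Gnai3 passed as well (0.0152), by limma. Dclk2, Dclk3 and the gustducin relatives Gnat1 and Gnat2, named after their values were seen, did not pass in any comparison.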

How the data were processed

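Sorted lung epithelial cells from pools of 3 to 4 mice were measured on 18 Affymetrix arrays, from 8 ng of total RNA each. The authors deposited log2 values of 72688 probe sets made with RMA, per the submitters' processing notes. Which RMA software and which genome build were used was not given in the sources used here. Levels are compared only within runs, which differ in their medians. A scanner of 16 bits gives log2 values up to 16, and the deposited values reached 19.93, so every difference is left as log2 with no fold. Runs were told apart by the number of decimals (5 and 6) and the array medians. No scan date or slide was used here.

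The platform annotation, updated through RefSeq for 827 symbols, gives a single symbol to 30604 of 65956 probe sets outside the controls, several to 2146 and no symbol to 33206. The brightest probe set stood for a gene that had more than 1, and 30142 genes were tested. Groups were taken from the sample titles. All 18 arrays were fitted with limma 3.58.1 in R 4.3.3 on group and run, with eBayes, two-sided tests and Benjamini-Hochberg adjustment over all genes of a comparison, at a threshold of 0.05. The fitting code was tested on simulated data. Where the lower group of a comparison was dim, its array values under the background percentile were raised to it to give a limit on the difference. The values of the higher group were left as they were. The background sets differ in GC content from single probe sets, and the GC content of the probes is not known here. The number of arrays limits the precision.

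The experiment number in the sample titles pairs arrays across groups. Residuals of arrays with the same number correlated at 0.486 to 0.802 over 16 pairs, of which 0.0034 to 0.516 was left after run was taken out as well, with 12 of 16 over 0.1. Whether a shared number means the same animals is not stated.

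All 8 tuft cell genes are named. From each wider list, up to 4 genes per comparison with the largest difference past the threshold and the higher group above background on all 6 arrays are named. Also named are the 3 genes most correlated with Dclk1 and Bmx, the relatives above background on all 6 arrays of a group, and markers beside the gene they move with. The members and lists were chosen with earlier results of these data known. Promoters run from 250 bases before to 50 after a RefSeq start, and 6 of the 8 genes were matched; Pou2f3 and Il25 were not. Alternatives tried were no run term, the experiment as a block, each run alone, quantile normalization, median centring, a filter on dim genes, other probe set and variance choices, and each experiment left out. Leaving out the Wntlow arrays of experiments 3 and 4 was added after seeing the data.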

Additional observations from a re-analysis of the deposited data

Results flagged for a closer look

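For each of the 8 genes and 3 groups, the 6 run-centred values were examined for 1 array standing apart by Dixon's criterion. Of 24 sets, 9 held such an array, where chance gives about 1 in 20 for independent values with a normal spread. Many values here were identical, so the 9 are not read against that rate. Trpm5 stood apart with a low value of 4.27 in Wnthigh of experiment 5 and a high value of 4.53 in Wntlow of experiment 3. Pou2f3 was low, at 3.04, in Wntlow of experiment 8. Avil was high, at 6.73, in Wnthigh of experiment 5 and low, at 4.42, in Wntnegative of experiment 7. Il25 was low, at 3.18, in Wnthigh of experiment 8. Sh2d6 was high in Wntlow of experiment 3 at 4.24 and in Wntnegative of experiment 5 at 4.26. Bmx was low, at 3.31, in Wntnegative of experiment 8, where no array was above background. The whole range of these sets of 6 run-centred values ran from 0.09 to 0.63 log2 units. Values identical on several arrays were common in Trpm5, Pou2f3, Avil, Gnat3 and Sh2d6, and their part in these results was not tested. Dclk1 had no array standing apart.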

How the results depend on the processing

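Of 393 log2 differences of the 8 genes under the alternatives, 369 kept their side of the threshold, 6 passed only under the alternative and 18 no longer passed. The sign was kept in 355 and was not in 38, of which 0 belonged to a called difference. The counts that moved are these. With no run term, 2824, 1061 and 1351 genes passed in Wnthigh against Wntnegative, Wntlow against Wntnegative and Wnthigh against Wntlow, in place of 12142, 7697 and 8402. Of the 8 genes, 1 passed in each of the last 2 comparisons. The lists, counted over genes passing in any comparison, then had 0 taste genes, 0 transcription factors, 2 eicosanoid, 1 blood-type, 3 structural and 1 relative, in place of 2, 6, 4, 4, 6 and 8. In experiments 2 to 5 alone, 2532 and 3291 genes passed in the last 2 comparisons, with 1 of the 8 genes in each, 1 taste gene, 2 eicosanoid genes and 3 relatives. In experiments 7 to 9 alone, 7906 and 4471 genes passed in the first 2 comparisons, with 2 transcription factors, 2 blood-type genes and 5 relatives. With quantile normalization, median centring, the dim filter or the Wntlow arrays of experiments 3 and 4 left out, 2 of the 8 passed in Wnthigh against Wntnegative. Quantile normalization gave 3 transcription factors and 5 relatives, and the dim filter 3 transcription factors. Leaving out each experiment in turn gave 1 to 2 of the 8 genes in Wnthigh against Wntnegative, 1 to 3 in Wntlow against Wntnegative, 1 to 3 taste genes and 3 to 6 transcription factors. The share of all genes passing in any comparison is not given here, so the list counts are not read against all genes. The same holds for counts under settings given here without the number of all genes. The cause of these moves was not tested.

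With the experiment as a replicate block, the pairing left 11573, 8002 and 8139 genes called and changed no call of the 8 genes (1, 3 and 2). With the median of the background sets in place of the 95th percentile, 8 of the 8 genes counted as above background on all 6 arrays of a group, in place of 2, so which genes count as at background depends on that choice. Signal over background limits Trpm5, Pou2f3, Il25, Gnat3 and Sh2d6 to the statement that they were not above background. Without separate cell counts, a rare cell type can be present and unmeasured.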
